A study of Mus musculus with 2 samples.

Results

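Genes of iron storage and transport, 10 by name, were followed across both arrays of the study. They encode hepcidin and its second mouse copy (Hamp and Hamp2), the transferrin receptors (Tfrc and Tfr2), transferrin (Trf), ceruloplasmin (Cp), the ferritin chains (Fth1 and Ftl1), ferroportin (Slc40a1) and the divalent metal transporter (Slc11a2). They were chosen by gene symbol, and every probe with that symbol in the array design was read. Of the 10 names, 9 were among the 30175 gene names of the array, with 15 probes of 39429. Tfr2 was not listed under that name. A probe of the older symbol Trfr2, which the RefSeq gene table gives as a synonym of Tfr2, is described beside the others and stands outside the count of 9.

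The arrays hold RNA of mature hepatocytes (MHs) from normal liver and of Sox9+EpCAM- hepatocytes from the liver of mice fed DDC, a porphyrin-inducing compound that causes chronic bile duct injury. Both samples came from Sox9-EGFP mice, a reporter strain in which EGFP marks cells that express the ductal transcription factor Sox9, and both are labelled male. MHs were purified on a Percoll gradient, while Sox9+EpCAM- cells were sorted as GFP+EpCAM- cells, so injury, reporter state and isolation all differ between the groups and cannot be told apart. The strain background, the age, the number of mice behind each array and the length of DDC feeding for the arrays are not given in the sources used here. Each group has 1 array, so there are no replicates and neither an SD nor a test can be given for a difference, and every difference below compares these 2 RNA samples.

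The labels and the arrays differed on sex. Xist, the RNA of the inactive X chromosome, had an intensity of 1940 and 3500 at its 2 probes on the MH array and did not rise well above background in Sox9+EpCAM- cells. Y-linked genes, 4 of them with 5 probes in all, gave 0 probes well above background in MHs and 4 in Sox9+EpCAM- cells. The MH array therefore went against its label of male, and since it is the only array of MHs no difference can be given without it. Sex and cell type therefore cannot be told apart here either. The 10 hepatocyte markers were well above background on both arrays, with Alb at 207000 and 170000. Epcam itself was higher on the array of cells sorted as EpCAM-, at 2770 against 139 in MHs. Some markers of ductal and fibroblast cells were also higher there and most macrophage, endothelial and erythroid markers lower, with values given beside the results they accompany.

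Iron circulates bound to transferrin and enters cells when transferrin is taken up by its receptor. Cells hold spare iron in ferritin, a shell of heavy and light chains, and release it through ferroportin, the only known iron exporter of mammals. Hepatocytes secrete hepcidin, a peptide hormone that blocks ferroportin and drives its degradation, and they raise hepcidin transcription in response to bone morphogenetic proteins (BMPs) when iron is plentiful and to interleukin-6 in inflammation. Ferritin and transferrin receptor are also set after transcription by iron regulatory proteins, which bind hairpins in their mRNAs.

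Mice carry a pair of hepcidin genes next to each other, so the sequences that tell them apart on the array are shown first. Each gene has 1 probe of 60 bases, Hamp at chr7:31727490-31727549 and Hamp2 at chr7:31707520-31707579, both on the minus strand of mm9. Capitals mark the bases that differ between the probes where they align.
Hamp probe: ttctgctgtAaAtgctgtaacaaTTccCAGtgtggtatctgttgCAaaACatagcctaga
Hamp2 probe: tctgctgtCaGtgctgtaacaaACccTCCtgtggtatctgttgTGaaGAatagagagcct
Of 56 aligned bases 45 were identical (80.4%), and the longest stretch they shared was 14 bases. How far either probe binds the transcript of the other gene was not tested.

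Hamp encodes hepcidin, the systemic regulator of iron. It read 130000 in MHs and 111000 in Sox9+EpCAM- cells, in units of fluorescence intensity, and the scanner's own errors were 13000 and 11100. To compare arrays, each intensity was divided by the 75th percentile of its array (741 for MHs, 1110 for Sox9+EpCAM- cells). On that scale Hamp was 1.75-fold lower in Sox9+EpCAM- cells, or -0.81 as a log2 difference, with a scanner error of 0.20. Of all genes measured on both arrays, 22.9% were at least as low. Before scaling, the intensities differed by little more than the scanner's errors. In RNA of a cell population, fewer expressing cells and less RNA per cell cannot be told apart.

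Hamp2, the second copy, whose product is not known to regulate iron as hepcidin does, differed far more. Its intensity was 110000 (scanner error 11000) in MHs and 19900 (1990) in the sorted cells. This is an 8.28-fold lower level, a log2 difference of -3.05 with a scanner error of 0.20, and 1.48% of genes measured on both arrays were at least as low. The fold of Hamp2 was 4.72 times that of Hamp, a ratio in which a common scaling factor of an array cancels.

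The start regions of both genes are shown because their mRNAs differed while the regions are near copies. The 250 bases before each start, as RefSeq gives them for GRCm38.p6 on the minus strand, are chr7:30944030-30944279 for Hamp and chr7:30924182-30924431 for Hamp2. Capitals mark GGCGCC, the core of the element through which BMP signals act on hepcidin, and TTCNNNGAA, the general form of a STAT site, with the aligned letters of the other gene.
Hamp promoter: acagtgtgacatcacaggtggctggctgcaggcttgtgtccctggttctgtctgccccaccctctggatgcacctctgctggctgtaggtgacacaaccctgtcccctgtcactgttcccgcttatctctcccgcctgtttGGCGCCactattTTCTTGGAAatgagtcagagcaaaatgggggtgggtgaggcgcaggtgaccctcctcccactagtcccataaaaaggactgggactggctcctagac
Hamp2 promoter: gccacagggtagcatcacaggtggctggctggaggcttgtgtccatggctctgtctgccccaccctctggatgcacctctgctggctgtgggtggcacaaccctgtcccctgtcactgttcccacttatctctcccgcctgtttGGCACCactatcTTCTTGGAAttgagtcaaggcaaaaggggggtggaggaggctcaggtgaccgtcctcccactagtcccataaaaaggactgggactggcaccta
The regions were identical at 227 of 247 aligned bases (91.9%). GGCGCC lay 109 to 104 bases before the start of Hamp, and the aligned letters of Hamp2 were GGCACC, the substitution G145A counted from 1 at the 5′ end of the Hamp region. TTCTTGGAA was present in both, beginning 97 bases before the start of Hamp and 94 before that of Hamp2. Both patterns read the same on either strand, so a search of 1 strand covers both. Over the same 250 bases before the start, 9.59% of 32851 start regions held GGCGCC and 7.02% held TTCNNNGAA. The matches describe the letters of these regions and not binding. Of the 10 names, 7 had an entry among these start regions, in 12 versions, and the other matches among them were a GGCGCC in 1 of the versions of Tfrc.

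**Figure D1:**
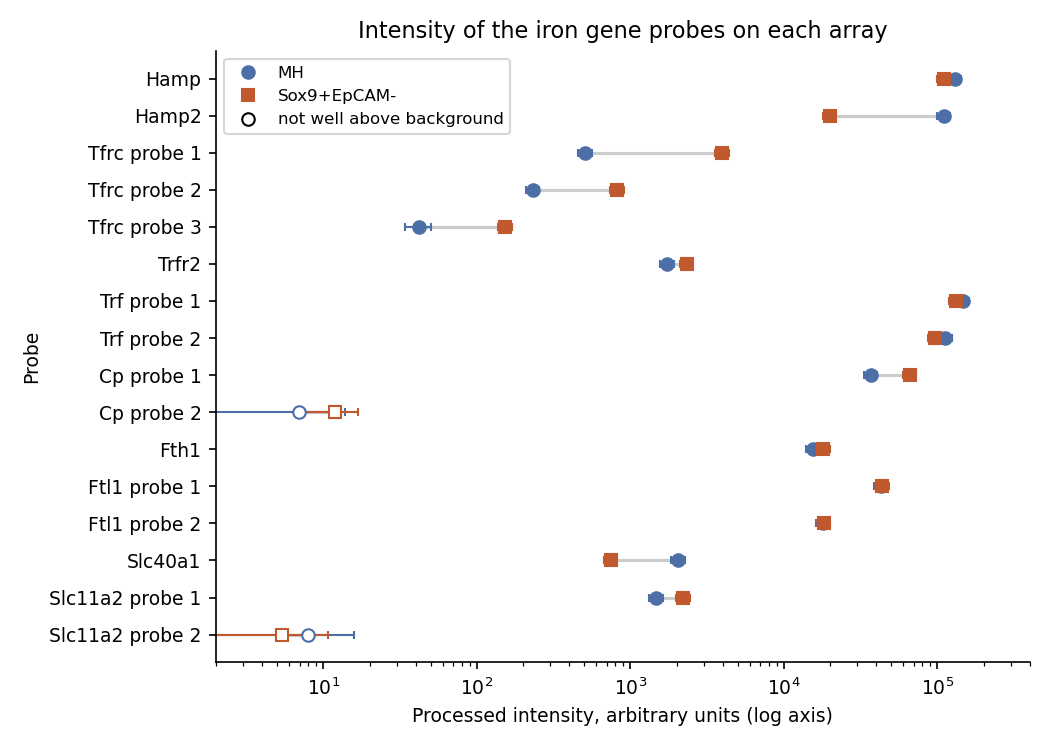
Processed intensity of each probe on the MH array (circles) and the Sox9+EpCAM- array (squares), on a log axis in arbitrary units, with the scanner's error as bars and open symbols for probes not well above background. Bars that pass the left edge of the plot end there. Intensities are plotted before scaling to the 75th percentile, which was higher for Sox9+EpCAM- cells, and the wide gaps are those of Hamp2, the probes of Tfrc and Slc40a1.

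Tfrc, the receptor that brings transferrin-bound iron into cells, was the 1 gene of the 9 whose level in Sox9+EpCAM- cells was higher by 2-fold or more, against 11.8% of all genes measured on both arrays. Its brightest probe (chr16:32632255-32632314) was printed at 10 spots, which read 460 to 559 on the MH array with a mean of 510, and 3740 to 4320 on the Sox9+EpCAM- array with a mean of 3970. The spots of the arrays did not overlap. The probe was 5.20-fold higher, a log2 difference of 2.38 with an SD of 0.06 between the 10 spots, which covers the printing of 1 array and not mice. Of genes measured on both arrays, 2.65% were at least as high.

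The other probes of Tfrc showed a smaller difference in the same direction. The probe at chr16:32620470-32620529 read 232 and 824, or 2.37-fold higher. The third lies between 32624877 and 32625093, a span longer than the probe, and read 42.0 and 153, which is 2.43-fold higher with a log2 scanner error of 0.31. The size of the change in Tfrc was therefore between 2.37-fold and 5.20-fold depending on the probe, while all 3 were more than 2-fold higher. Erythroid precursors carry much Tfrc. Of 7 erythroid markers with a difference, some as bounds against background, 0 were at least 2-fold higher and 5 lower. Of 21877 genes with a difference or such a bound, 15.2% were that much higher and 17.9% lower. The summed level of the erythroid markers was 7.43 times the 75th percentile in MHs and 1.97 times in Sox9+EpCAM- cells. Hba-a1, a globin gene, read 1820 and 176, and Alas2, the erythroid enzyme of haem synthesis, read 987 and 346, while Hbb-b1 was not above background on either array. The part of erythroid cells in the difference of Tfrc was not tested.

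The second transferrin receptor, a sensor of transferrin saturation in hepatocytes, was read through Trfr2 (chr5:138028646-138028705). Trfr2 had an intensity of 1740 in MHs and 2330 in Sox9+EpCAM- cells. After scaling the log2 difference was -0.16, close to the median over all genes measured on both arrays of -0.19. The 2 receptors thus had differences of 2.38 and -0.16 on the log2 scale.

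Trf, the carrier of iron in plasma, and Cp, the copper-containing oxidase that loads iron onto it, are both secreted by hepatocytes. The probes of Trf read 147000 and 133000 (chr9:103112826-103112885) and 113000 and 96300, MHs first. Their log2 differences were -0.73 and -0.81, so the probes differed by less than their scanner error. Trf was within 2-fold, as 1.66-fold lower. Cp read 36800 and 66400 at a probe of its transcript variant 2 (chr3:19889071-19889130), a log2 difference of 0.27 or 1.20-fold higher. A probe of variant 1 of Cp (chr3:19907511-19907570) was not well above background on either array, at 6.94 and 12.0. Albumin, also a secreted hepatocyte protein, had a log2 difference of -0.87.

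The ferritin chains differed little. Fth1, the heavy chain that oxidises iron on entry, read 15400 and 18100 (chr19:10059485-10059544), a log2 difference of -0.35 that turned to 0.08 under quantile normalization. Ftl1, the light chain that helps to form the iron core, read 43100 and 43800 at a probe that spans chr7:52714014-52714495 and 17900 and 18300 at chr7:52713309-52713368. Its log2 differences were -0.56 and -0.55. The second of these probes has 20 bases in common with a differently named probe, and ferritin light chain has many near-identical copies in the mouse genome, so the signal of Ftl1 and of such copies cannot be told apart. The probe of LOC434624, named as ferritin light chain 1-like in the design, read 40300 and 46000, a log2 difference of -0.39. Ferritin mRNA says little of ferritin protein, which is set mainly at translation.

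Slc40a1, which exports iron, was 4.11-fold lower in Sox9+EpCAM- cells. Its probe (chr1:45965255-45965314) read 2050 with a scanner error of 205 on the MH array and 748 with an error of 74.9 on the Sox9+EpCAM- array. The log2 difference was -2.04, and 4.54% of genes measured on both arrays were at least as low. Slc11a2, which carries ferrous iron out of the endosome after uptake through Tfrc, read 1480 and 2210 (chr15:100240516-100240575). After scaling the arrays were level, with a log2 difference between -0.18 and 0.26 over 10 alternative settings, and its second probe was not well above background on either array, at 7.97 and 5.40.

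Kupffer cells, the macrophages of the liver, are rich in ferroportin, and their markers moved with Slc40a1. Of 10 macrophage markers 7 were lower by at least 2-fold and 2 higher, with a median log2 difference of -2.94 and a summed level of 35.0 times the 75th percentile in MHs and 18.7 times in Sox9+EpCAM- cells. Csf1r, a growth factor receptor of macrophages, read 12200 and 13700 at its brightest probe (-0.42, with -2.71 and -0.70 as the lowest and highest of its other probes) and made up much of that sum, which was 18.6 and 6.40 without it. Clec4f, which marks Kupffer cells, read 6780 and 118, and Cd5l read 2650 and 89.0. Vsig4 was at 368 in MHs and not well above background in Sox9+EpCAM- cells, while Cd68 and Cd14 were higher, with log2 differences of 3.85 and 3.54. The part of macrophages in the difference of Slc40a1 was not tested.

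Counted together, 1 of the 9 genes was higher by at least 2-fold in the Sox9+EpCAM- sample (Tfrc), 2 were lower (Hamp2 and Slc40a1) and 6 were within 2-fold. Of 19235 genes measured on both arrays, 11.8% were at least 2-fold higher and 17.4% lower. The counts of 1 and 2 among 9 are near these shares. The 3 genes were also past 4-fold as reported, in a background of 3.94% higher and 4.75% lower. Slc40a1 fell under 4-fold in some of the other settings below, and Tfrc was past it only at its brightest probe. The median over the 9 genes was -0.56 on the log2 scale, beside -0.19 over all genes measured on both arrays. By role, the uptake receptor Tfrc was higher and the exporter Slc40a1 lower, and of the hepcidin genes Hamp2 was lower and Hamp within 2-fold. Both ferritin chains, Trf, Cp and the divalent transporter were also within 2-fold.

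**Figure D2:**
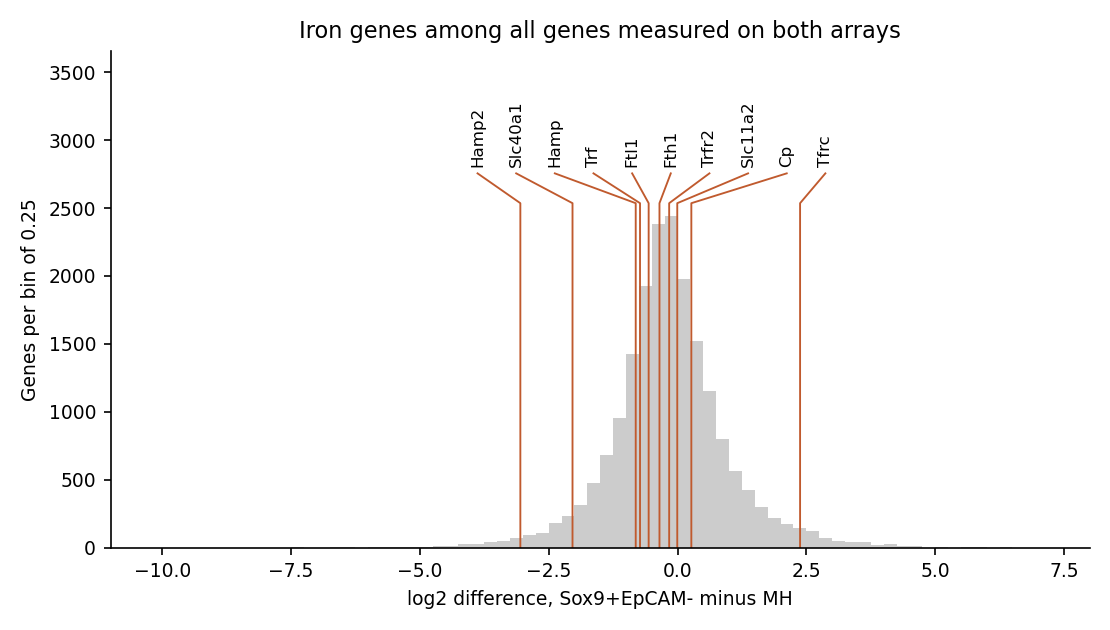
Number of genes in bins of 0.25 of the log2 difference between Sox9+EpCAM- cells and MHs, for the 19235 genes measured on both arrays, with lines at the differences of the 9 iron genes and of Trfr2. Hamp2 at -3.05 and Slc40a1 at -2.04 lie in the left tail and Tfrc at 2.38 in the right tail, and the other lines fall within the bulk.

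Around these genes, 5 lists of other iron genes were read. Their counts include genes with a bound, as for the markers, so the same shares of 15.2% higher and 17.9% lower apply. They rest on the brightest probe of each gene.

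The first list holds the regulators of hepcidin, of which 21 of 23 had a difference. Of these 3 were at least 2-fold higher, 5 lower and 13 within 2-fold, with a median of -0.24 that turned to 0.03 under quantile normalization and under scaling to Gapdh. Hfe, the haemochromatosis protein that works with the second transferrin receptor, read 497 and 210, a log2 difference of -1.83. Bmpr1a, a BMP receptor, read 179 and 93.3 (-1.52), and the ligand Bmp2, at 143 in MHs, was 2.14-fold lower (-1.10). Hfe2, which encodes the BMP co-receptor hemojuvelin, read 2690 and 2010, just past 2-fold lower. Cebpa, a transcription factor of hepatocytes that binds the hepcidin promoter, read 10900 and 6660 (-1.29).

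The 3 higher regulators were a BMP ligand, a BMP target and the factor downstream of interleukin-6. Bmp6, the main iron-dependent ligand, read 276 and 900, a log2 difference of 1.12. Id1, a common target of BMP signalling, read 89.7 and 397 (1.56). Stat3 read 6240 and 19400 (1.05) at its brightest probe, but 812 and 1030 (-0.24) at a second one printed at 10 spots, so its difference depends on the probe. In the liver Bmp2 and Bmp6 come mainly from endothelial cells, and 6 of 9 endothelial markers were at least 2-fold lower and 1 higher, with a summed level of 8.40 against 2.67 times the 75th percentile. Their part in the values of Bmp2 and Bmp6 was not tested. Tmprss6, the protease that restrains hepcidin, read 10200 and 11800, a log2 difference of -0.37. Smad6 and Smad7, inhibitors of the BMP pathway, were not above background on either array. Smad1 had log2 differences of -0.01 and 1.93 at 2 probes and Acvr2a of 0.41 and -1.21.

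The list of iron sensing and ferritin turnover had 10 of 11 genes with a difference, of which 1 was at least 2-fold higher, 2 lower and 7 within 2-fold, with a median of -0.57. Epas1, an oxygen-sensing factor, was within 2-fold at its brightest probe (-0.59) but past it at its others (-1.25 and -1.08). Ncoa4, the receptor that takes ferritin to the lysosome, read 3280 and 1630, a log2 difference of -1.59. Ireb2, an iron regulatory protein that stabilises Tfrc mRNA, read 4280 and 2250 (-1.51), while the other such protein, Aco1, read 561 and 607 (-0.47). The higher gene was Hif1a, also an oxygen-sensing factor, which acts on Tfrc, at 42.4 and 259 (2.03). The second probe of Hif1a was not well above background in MHs and gave a bound of at least 0.26.

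Of 13 genes with a difference in the list of cellular iron uptake, reduction and export, 0 were at least 2-fold higher, 3 lower and 10 within 2-fold, with a median of -0.66. The count of 0 rests on the brightest probes, since other probes of Scara5 and of the metalloreductase Steap2 had log2 differences of 2.98 and 1.26. Slc39a8, a zinc and iron importer, read 1750 and 571, a log2 difference of -2.20. Sfxn1, a mitochondrial carrier of serine, read 13100 and 7690 (-1.35) at its brightest probe but had a log2 difference of -0.15 at the other, so its place among the lower genes depends on the probe. Prnp, the prion protein, read 1380 and 901 (-1.20). Steap3, the endosomal reductase that works with Tfrc, had log2 differences of 0.16 and -0.32 at 2 probes, and Slc39a14, the main importer of free iron in hepatocytes, one of -0.67. Scara5, a receptor for ferritin, had a difference of -0.22 at its brightest probe, and Steap2 one of 0.88.

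Haem and haemoglobin scavenging showed the widest range, from at most -3.58 to 4.54. Of 10 genes with a difference, 2 were at least 2-fold higher, 2 lower and 6 within 2-fold, with a median of 0.17. Hmox1, the enzyme that opens haem and frees its iron, read 1420 and 49400 at its brightest probe, or 23.2-fold higher, and 195 and 25800 at its other probe, or 88.3-fold higher. Lcn2, a siderophore-binding protein of the acute phase, read 548 and 7360, or 8.97-fold higher. Blvrb, a biliverdin reductase, read 292 and 82.5 (-2.41). Cd163, the macrophage receptor for haemoglobin, read 147 and was not well above background in Sox9+EpCAM- cells, at least 12.0-fold lower. The plasma scavengers of hepatocytes stayed within 2-fold, with Hp at 0.65 and Hpx at -0.22.

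The list of mitochondrial iron and iron-sulphur cluster genes had 19 genes with a difference. Of these 0 were at least 2-fold higher, 5 lower and 14 within 2-fold, beside shares of 15.2% higher and 17.9% lower over all genes. The median of -0.82 was the lowest of the 5 lists, and it was -0.56 under quantile normalization and -0.55 under scaling to Gapdh. Over all genes with a difference or a bound the median was -0.12 as reported. Slc25a37, which brings iron into mitochondria, read 2070 and 818 (-1.92) at its brightest probe and had a log2 difference of -0.91 at the other. Hscb, a co-chaperone of cluster transfer, read 116 and 51.2 (-1.76). Lyrm4, a partner of the cysteine desulfurase, read 1160 and 734 (-1.24), and Isca1, a late-acting assembly protein, read 5230 and 3390 (-1.21) at its brightest probe and was within 2-fold at the other (-0.48). Iscu, the scaffold on which clusters are built, read 622 and 1830, a log2 difference of 0.97 at its brightest probe and -0.21 at the other, so its direction depends on the probe.

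**Figure D3:**
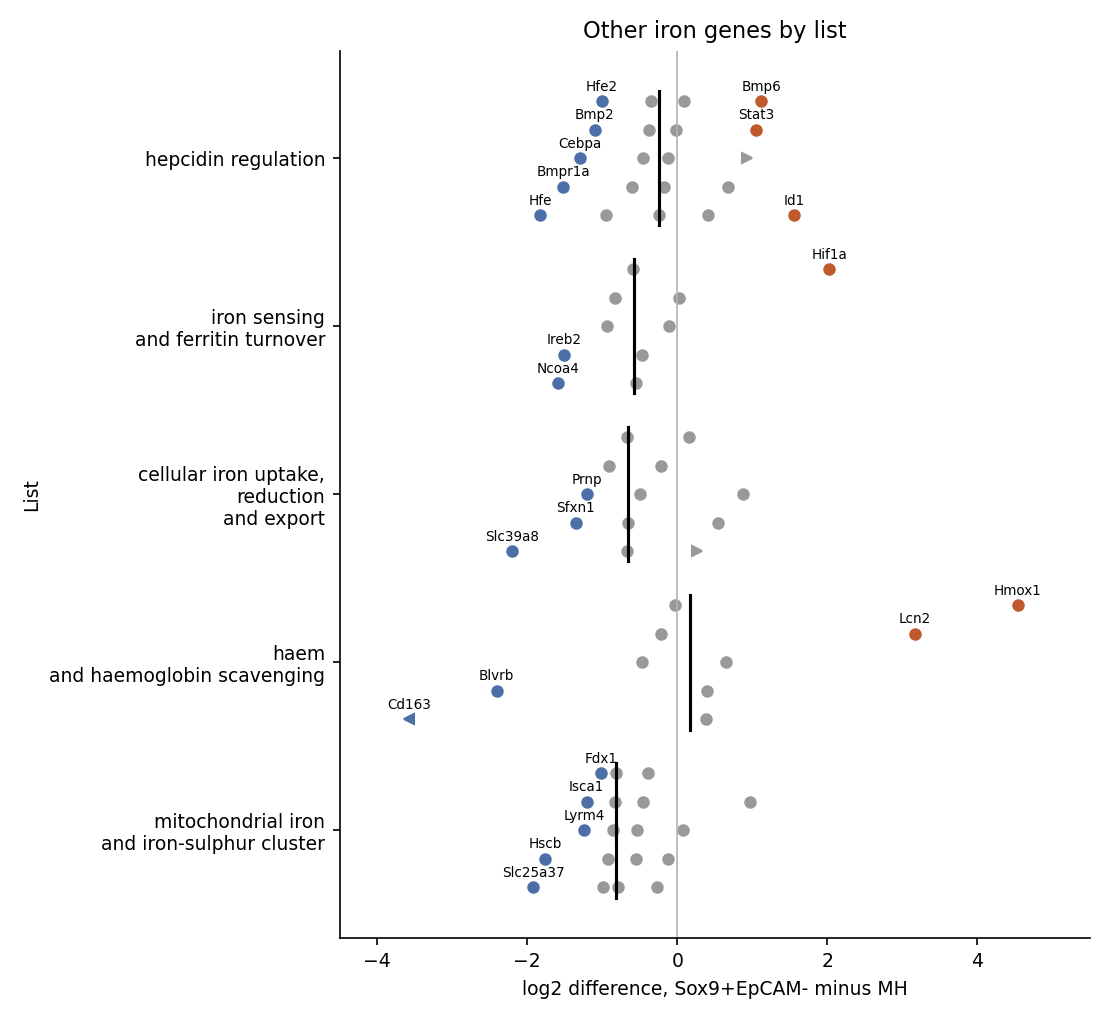
The log2 difference between Sox9+EpCAM- cells and MHs (x axis) of each gene in the 5 lists of other iron genes (y axis), with triangles for bounds, colours for genes at least 2-fold higher or lower, and a black line at the median of each list. The mitochondrial list has its median at -0.82 and no gene past 2-fold to the right, and Hmox1 at 4.54 is the point farthest from 0.

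The marker lists of other cell types were read on the same scale. Hepatocyte markers had a median log2 difference of -1.06, with 6 of 10 at least 2-fold lower and 0 higher. Beside these, Hamp at -0.81 and Trf at -0.73 had smaller differences than the hepatocyte median, and Hamp2 at -3.05 a larger one. Ductal markers had 4 of 10 higher and 1 lower, and their summed level was 3.61 times the 75th percentile in MHs and 50.6 times in Sox9+EpCAM- cells, or 3.27 and 8.30 without Spp1. Sox9 and Muc1 among them were not above background in MHs. Fibroblast and stellate markers had 5 of 9 higher and 1 lower, and a summed level of 12.3 against 44.6, or 1.42 and 31.1 without Dcn. Leukocyte markers had 1 of 5 lower and 0 higher, and a summed level of 136 against 79.2, most of which was 1 probe of Itgam at 92100 and 84700. The other probes of Itgam had log2 differences of -0.01 and 0.37 against -0.70 at that one, and without Itgam the sum was 12.1 and 2.86. The part of ductal or fibroblast cells in the higher Tfrc, Hmox1 and Lcn2 was not tested.

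**Figure D4:**
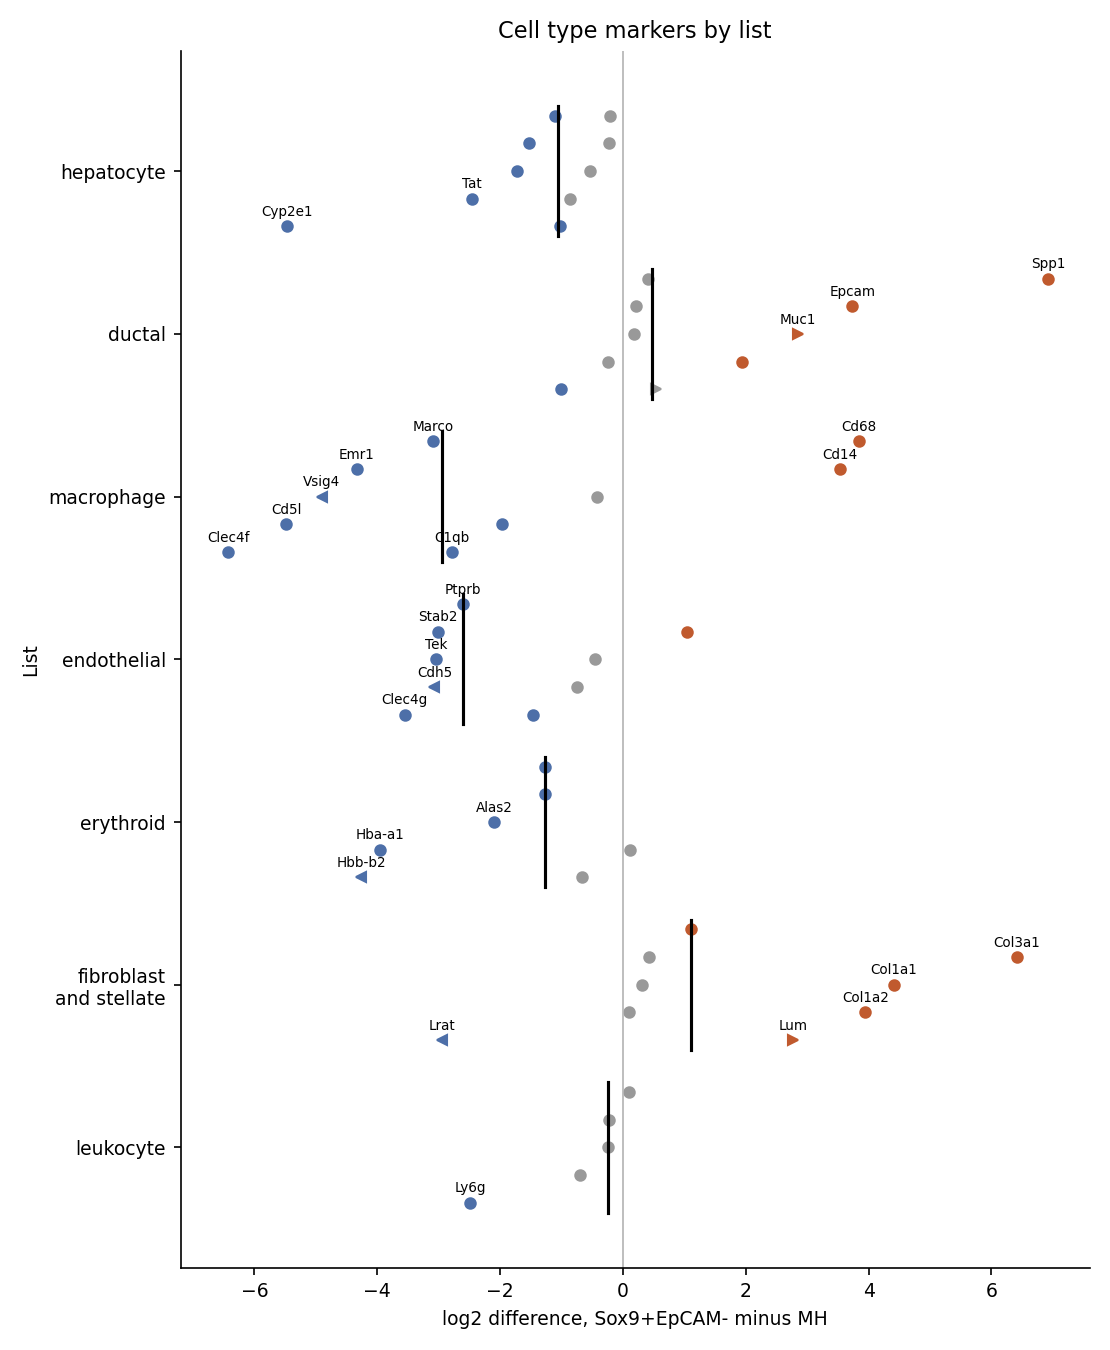
The log2 difference between Sox9+EpCAM- cells and MHs (x axis) of each marker gene in 7 cell type lists (y axis), with triangles for bounds, colours for genes at least 2-fold higher or lower, and a black line at the median of each list. The macrophage median lies at -2.94 and the endothelial one at -2.60, while the fibroblast and stellate median lies at 1.11.

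Most of the differences kept their direction when the arrays were processed in 10 other ways, of which 3 could not move the 9 values. Hamp2 ranged from -3.23 to -2.53 and Slc40a1 from -2.22 to -1.77, which is under 4-fold at its smallest. Tfrc ranged from 1.28, as the median of its 3 probes, to 2.65. Hamp ranged from -0.99 to -0.25, Trf from -0.90 to -0.17 and Ftl1 from -0.74 to -0.10, in each case nearest to 0 under quantile normalization, and Cp ranged from 0.09 to 0.78. The bright genes within 2-fold thus had sizes that depended on the normalization, whereas Hamp2, Slc40a1 and Tfrc were past 2-fold in every setting.

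**Figure D5:**
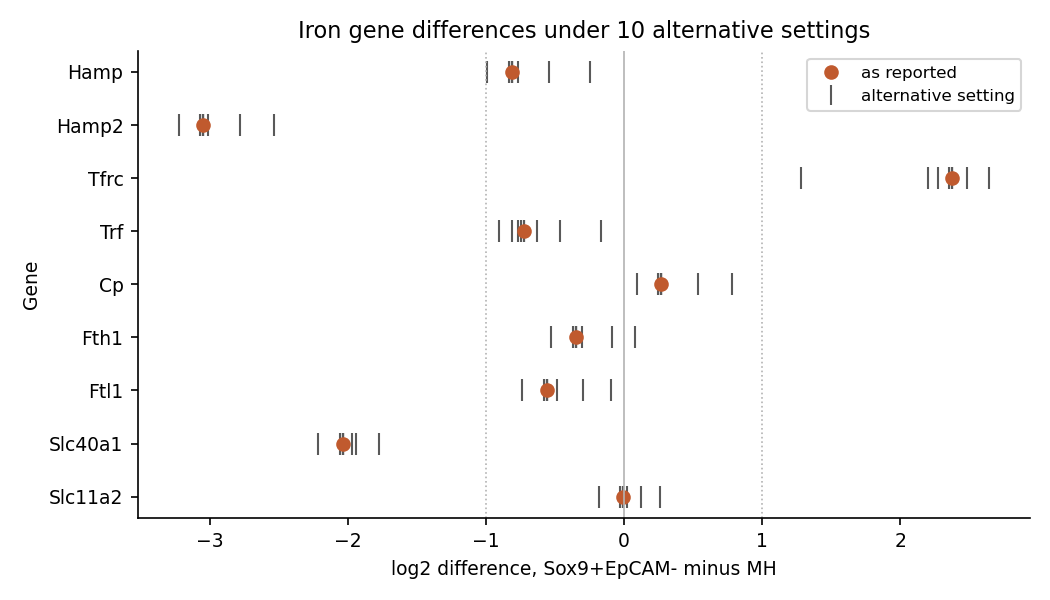
The log2 difference between Sox9+EpCAM- cells and MHs (x axis) of each of the 9 iron genes (y axis) as reported (dots) and under 10 alternative settings (ticks), with dotted lines at 2-fold. Hamp2, Slc40a1 and Tfrc stay outside the dotted lines, and Fth1 and Slc11a2 have ticks on both sides of 0.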

How the data were processed

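Two-step collagenase perfusion, the purification of each cell type and the microarray, run by a service provider with an undisclosed labelling protocol, were the authors' work. For each of the 2 arrays the authors deposited spot intensities as Feature Extraction 10.7.3.1 gave them, with background subtracted and no normalization between arrays, and a table of ratio values, which are the intensity of a spot over the median of its array (the SD of the log2 factor was 0.0018). The array design gives coordinates on mm9.

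Of 43020 spots that are not controls, 276 carried an outlier flag on at least 1 array and were dropped. Spots of a probe were averaged, intensities were divided by the 75th percentile of the array and taken to log2, and the probe with the highest mean stands for its gene. For MHs 27523 spots were well above background and for Sox9+EpCAM- cells 32158, the dimmest at an intensity of 27.8 and 18.4, and saturation was not marked at any spot. A probe not well above background on 1 array was given a bound against the higher of its own signal and that lowest intensity. The median SD between spots of a probe was 0.08 (log2) on each array. With 1 array per group the number of arrays limits the precision, and a difference of 2-fold was used as a rule of size without a test.

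The iron genes and the lists were chosen with earlier results of these data known. Every probe of the 10 names is given, and of each wider list the 4 highest and 4 lowest genes past 2-fold were named; any further gene in the text was picked with its values known, and some marker genes are not reported here by name. Promoter sequences and synonyms come from RefSeq tables of GRCm38.p6, in which 19984 of the 30175 names are current symbols and 2280 are synonyms. Alternatives covered background correction by normexp with an offset of 50 (R 4.3.3, limma 3.58.1), other scalings and normalizations, other probe choices and the deposited ratio table. The remaining steps used numpy 2.4.6 and pandas 2.3.3 under Python 3.11.15. Of these, the step from spots to gene differences was tested by putting known fold changes into the values of the MH array.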

Additional observations from a re-analysis of the deposited data

How the results depend on the processing

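Keeping outlier spots, dropping the bounds and requiring probes above background on both arrays left the 9 iron genes exactly as reported. None of these settings could move them, so they say nothing of stability. No spot of the iron genes carried an outlier flag, and the probe that stands for each gene was above background on both arrays. Of 103 values under the other settings, 101 stayed within 1.5-fold or 1.5 times the count and 2 moved beyond it. Beside the list of hepcidin regulators, the medians of the other 4 iron lists kept their sign under the 4 settings run for them. The log2 difference of Tfrc moved to 1.28 with the median of all its probes. At a threshold of 1.5-fold in place of 2-fold, 4 of the iron genes were lower. Scaling to Gapdh shifted the median over all genes by 0.27 and the deposited table by -0.18 on the log2 scale, and each gene's difference moved with it. The Gapdh setting rests on the brightest Gapdh probe (-0.27). Other probes of Gapdh had log2 differences from -0.26 to 0.80, so the size and direction of that shift depend on the probe. Counting Trfr2 as Tfr2, an alternative chosen after seeing the data, left the counts at 1 higher and 2 lower. No paired analysis was possible because there was 1 array for MHs and 1 for Sox9+EpCAM- cells, and for the same reason a block for the slide and the removal of a replicate were not run. Probes not well above background on 1 array could be given as bounds only, and the arrays alone cannot show how far mice differ.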

Other observations

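The hepcidin genes lie next to each other on chromosome 7, and their neighbours in the gene order of RefSeq were read as values without a comparison. Usf2, the neighbour of Hamp and a transcription factor, had an intensity of 121000 in MHs and 125000 in Sox9+EpCAM- cells, or -0.54 as a log2 difference. Beyond it, Lsr, a lipoprotein receptor, had a log2 difference of 0.44, Fam187b one of 0.23 and Fxyd5 one of 1.03. On the side of Hamp2, Mag had a log2 difference of -0.23, Cd22 one of -0.05 and Ffar3 one of 0.57, while Ffar1 was not well above background on either array. Hamp2 at -3.05 was the lowest of the 9 genes of this stretch with a difference. Cd22, a gene of B cells, read 4970 in MHs and 7210 in Sox9+EpCAM- cells.

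In the list of haem scavenging, Lrp1, the receptor for haem bound to hemopexin, had log2 differences of 0.38, -2.37 and -0.57 at its 3 probes. Pcbp2, an iron chaperone, had a log2 difference of -0.55 at its brightest probe and at least 2.14 at the other. For both genes the direction depends on the probe.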
